A study of Homo sapiens with 20 samples.

Results

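High leucine was compared with low leucine at 480 min, the last of 5 sampling times, in THLE-3 cells. These cells are epithelial cells of an adult human liver that were made to grow permanently with the large T antigen of SV40, and they are an established line. The low leucine group was in medium with 0.1 mM leucine and the high leucine group in medium with 2 mM, and the labels name no other agent. Each group holds 2 arrays, 1 from a first and 1 from a second experiment, so 4 of the 20 arrays of the series give the difference. All 20 arrays were fitted together and set the variances and the block behind its error and p-value. The arrays were taken by their titles and paired by experiment, and the difference was computed for all 13329 of 22215 probe sets that passed a filter on weak signal, of 8280 genes with a symbol of their own. All results come from 1 cell line. How the cells were kept before 0 min and whether the experiments were separate cultures is not stated in the labels, so p-values describe the spread between the arrays alone, which may be technical.

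Leucine is an essential branched-chain amino acid that cells cannot make. When an amino acid is scarce, uncharged transfer RNA activates the kinase GCN2, which phosphorylates the initiation factor eIF2, slows translation in general and lets the transcription factor ATF4 be made. ATF4, with partners of the C/EBP family such as CHOP, then binds composite promoter elements of genes for amino acid import, amino acid synthesis and transfer RNA charging. Leucine is also a signal to the kinase mTORC1, which promotes translation, sterol and lipid synthesis and growth.

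The deposited values were probe set intensities in arbitrary units. Array means ran from 761.8 to 862.6 units and array medians from 433.2 to 492.9, and the second experiment was the brighter one at every time. Differences between experiments were larger than those between leucine levels. At 480 min the low and high leucine arrays of the same experiment correlated at 0.984 or above across probe sets, and arrays of different experiments at 0.936 or below. Of 19 hepatocyte markers 10 passed the 40th percentile of mean signal and 0 the 90th. ALB, the albumin gene, was at the 9.92nd percentile, AFP, for alpha-fetoprotein, at the 23.7th and HPX, for hemopexin, at the 78.5th. For biliary and other epithelial markers the counts were 5 and 2 of 12, and for stellate and fibroblast markers 11 and 3 of 14. Signals of different probes are not on 1 scale, so these counts do not rank the cell types. The summed intensity of the hepatocyte markers was 8561 and 9135 units in low leucine and 8273 and 8599 in high leucine. That of the biliary and epithelial markers was 7588 and 13170 units in low leucine and 8391 and 14840 in high leucine. It differed more between experiments than between leucine levels. Within bulk RNA, fewer cells of a type and less RNA per cell cannot be told apart.

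The response was a small set of probe sets with modest changes on both sides of 0. At a Benjamini-Hochberg adjusted p under 0.05 in limma, with the experiment as a fixed block, 545 of 13329 probe sets (4.09%) differed between the leucine levels. Of these, 330 were higher in high leucine and 215 were lower. Counted by gene, with the brightest probe set of each, 193 of 8280 genes (2.33%) were higher and 141 (1.7%) were lower. Without the block, 36 probe sets (0.27%) passed, 15 higher and 21 lower, and all 36 were among the 545. The split between directions depended on the scaling of the arrays. Among called probe sets, 60.6% were higher with quantile normalization, 65.5% with the values as deposited and 76.2% with median centring. Of the 4 arrays, the high leucine array of the second experiment bore most on the count. Without it 130 probe sets passed, against 228 without the low leucine array of the second experiment, 235 without that of the first, and 478 without the high leucine array of the first.

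The larger changes were on the lower side. Called lower probe sets had a median difference, high minus low leucine, of -0.33 on the log2 scale, with 45 beyond 0.5 and 6 beyond 1. Called higher probe sets had a median of 0.31, with 22 beyond 0.5 and 0 beyond 1. For comparison, the median absolute difference over all tested probe sets was 0.066, and 94.9% of them differed by under 0.25. Both deposited values of high leucine lay below both of low leucine in 191 of the 215 called lower probe sets, against 11.8% of all tested probe sets. They lay above in 291 of the 330 called higher probe sets, against 13% of all. The called lower genes tended to be bright. Of 141 such genes, 95 lay in the brightest of 4 equal bins of genes, 32 in the next, 8 in the third and 6 in the dimmest. The called higher genes were spread more evenly, with 67, 53, 40 and 33 in these bins. Every called probe set had the same sign in both experiments, as a choice by p favours. Over all tested probe sets the differences of the experiments correlated at r = 0.507 (Spearman 0.406) and 63.3% had the same sign. At 0 min r was already 0.327, and 60.4% had the same sign. At 30, 60 and 120 min r was 0.198, 0.154 and 0.042. Each pair of arrays comes from the same experiment, and genes are not independent replicates.

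**Figure D1:**
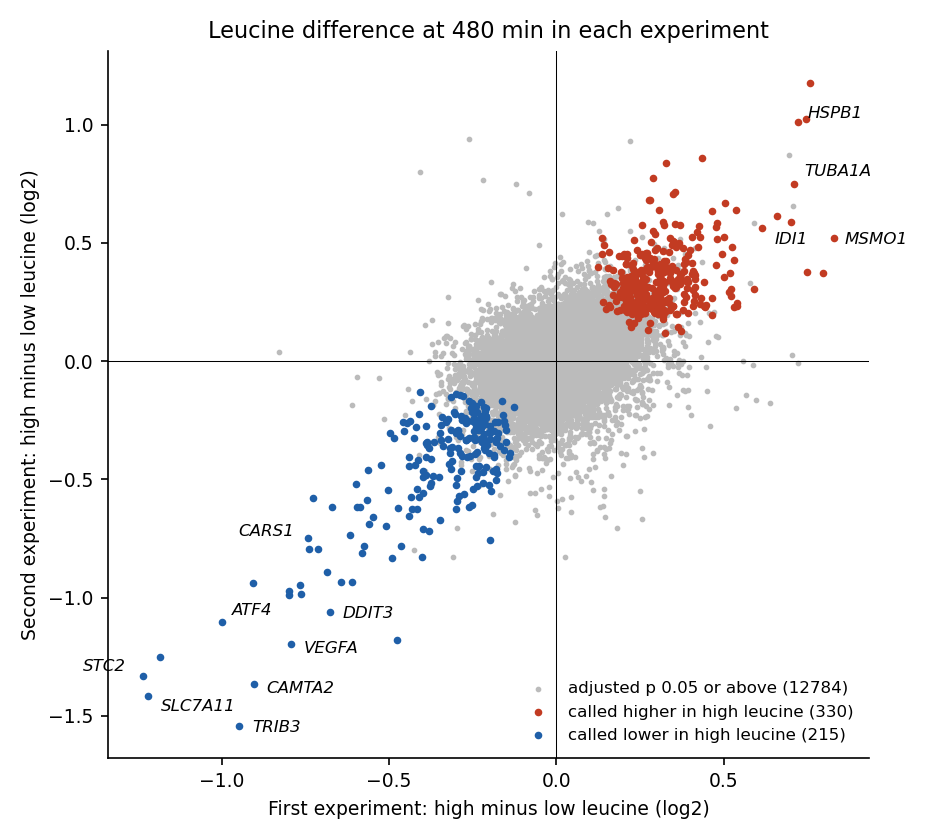
Difference between high and low leucine at 480 min (log2 units) in the first experiment (horizontal) and the second experiment (vertical), 1 point per tested probe set. Red points are the 330 called higher, blue points the 215 called lower and grey points the rest; the named lower genes lie furthest from 0, with TRIB3 at -0.95 and -1.54.

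Of 13 tested regulators of the amino acid response 6 were called lower in high leucine, against 1.7% of all tested genes. For all lists below, the shares over all tested genes are 2.33% called higher and 1.7% called lower. The lists and their members were chosen with earlier results of these data known, so the counts describe the lists and do not test them. ATF4, the central activator of the amino acid response, read 5281 units in low leucine in the first and 4846 in the second experiment, against 2613 and 2188 in high leucine. The groups did not overlap, and each high leucine array was at about the same distance below its partner. The difference was -1.05 ± 0.069 on the log2 scale (standard error, n = 2 arrays per group, limma adjusted p = 1.6e-06). CEBPG, a C/EBP family partner of ATF4, read 585.3 and 628.0 units in low leucine against 258.5 and 231.6 in high leucine. Its difference of -0.89 ± 0.1 (adjusted p = 0.00015) and that of ATF4 also passed without the block, each at an adjusted p of 0.016.

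DDIT3, which encodes CHOP, read 1381 and 1827 units in low leucine against 807.6 and 790.7 in high leucine. The high leucine arrays were alike and the low leucine arrays were not, so the difference was -0.68 in the first and -1.06 in the second experiment (fitted -0.87 ± 0.097, adjusted p = 0.00012). TRIB3, a pseudokinase that is a target and a feedback inhibitor of ATF4, showed the same shape. It read 2376 and 3906 units in low leucine against 1176 and 1236 in high leucine, a fitted difference of -1.24 ± 0.11 (adjusted p = 1.5e-05). NUPR1, a small stress-induced chromatin protein, read 1713 and 2929 units against 1078 and 1454, a difference of -0.77 ± 0.11 (adjusted p = 0.0013). For these 3 genes the calls did not pass without the block, with adjusted p of 0.14, 0.18 and 0.97. ATF3, another bZIP factor of this response, did not pass. It read 573.4 and 813.1 units in low leucine against 475.1 and 456.3 in high leucine, a difference of -0.42 ± 0.21 (adjusted p = 0.33). Without the high leucine array of the first experiment its difference was -0.84. Without that of the second experiment the difference was 0.0017 on the log2 scale, so the lower value in high leucine was gone. With each experiment and time as a block of its own, the fit that follows the pairs most closely, ATF3 passed at 0.017.

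On this list 0 of the 13 were called higher, and its median was -0.45 (-0.31 in the first and -0.65 in the second experiment). The median of all genes was -0.01. With 1 of the 4 arrays left out, between 5 and 8 of the 13 were called lower. Without the block, 2 were.

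**Figure D2:**
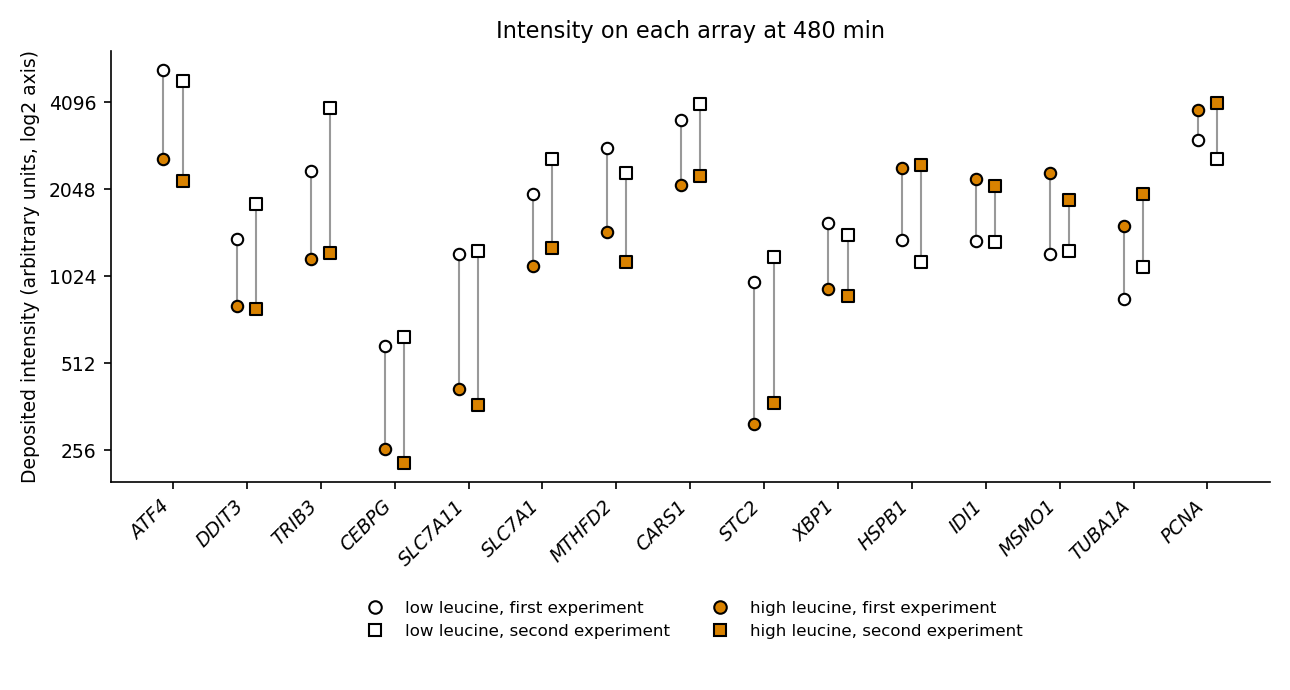
Deposited intensity (arbitrary units, log2 axis) of 15 genes on each of the 4 arrays at 480 min. White symbols are low leucine and orange symbols high leucine, circles the first and squares the second experiment, with lines joining arrays of the same experiment; in each gene shown the white and orange symbols do not overlap, with orange below white from ATF4 to XBP1 and above it from HSPB1 to PCNA.

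Among amino acid transporters the lower values lay in a few carriers. SLC7A11, the light chain of the cystine and glutamate exchanger, read 1217 and 1253 units in low leucine against 415.0 and 365.4 in high leucine. This was the most negative difference of the 8280 genes, -1.32 ± 0.13 (adjusted p = 3.1e-05), and it passed without the block at 0.035. Its second probe set also was called, at -1.22. SLC3A2, the heavy chain that pairs with SLC7A11 and other light chains at the plasma membrane, read 2879 and 3169 units against 2039 and 2553, a difference of -0.40 ± 0.057 (adjusted p = 0.0009). SLC7A1, a carrier of cationic amino acids, read 1977 and 2610 units against 1110 and 1281. Its difference was -0.86 ± 0.064 (adjusted p = 2.2e-06). Of its 4 other probe sets, 1 was called, and their differences ran from -0.43 to 0.10.

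SLC38A1, a sodium-coupled carrier of neutral amino acids, read 2773 and 3128 units in low leucine against 2330 and 2026 in high leucine (-0.43 ± 0.095, adjusted p = 0.017). This call was lost on leaving out any of 3 of the 4 arrays, with adjusted p up to 0.25 without the high leucine array of the second experiment. SLC7A5, the light chain of the main leucine importer, did not pass. It read 2138 and 4694 units in low leucine against 1360 and 4145 in high leucine, a difference of -0.61 in the first and -0.19 in the second experiment (adjusted p = 0.36). Its level differed more between experiments than between leucine levels, and with each pair as a block of its own its adjusted p was 0.048. On the whole list, 5 of 15 tested transporters were called lower and 0 higher, with a median of -0.11. Between 3 and 4 were called with 1 array left out, and 1 without the block.

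Of 23 tested enzymes on the list of amino acid and one-carbon synthesis 6 were called lower in high leucine. MTHFD2, a mitochondrial folate enzyme, read 2844 and 2338 units in low leucine against 1454 and 1146 in high leucine. Its difference of -0.92 ± 0.11 (adjusted p = 0.00018) was alike in both experiments, -0.91 and -0.94, and passed without the block at 0.016. PSAT1, the aminotransferase of serine synthesis, read 3234 and 2809 units against 2250 and 1701 (-0.60 ± 0.065, adjusted p = 8.2e-05). SHMT2, the mitochondrial enzyme that turns serine into glycine and a one-carbon unit, read 3984 and 4672 units against 3010 and 3047 (-0.52 ± 0.088, adjusted p = 0.0034). Both of its other probe sets were called lower as well, at -0.34 and -0.55. Without the high leucine array of the second experiment the adjusted p of SHMT2 was 0.074.

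ASNS, asparagine synthetase, is a textbook target of ATF4. It read 1513 and 1493 units in low leucine against 1113 and 1072 in high leucine, with no overlap of the groups. Its difference of -0.43 ± 0.11 passed at an adjusted p of 0.032. This call was close to the threshold: the adjusted p was 0.33 without the high leucine array of the second experiment, 0.27 without the low leucine array of the first, 0.076 with median centring and 0.057 with the values as deposited. CBS, which joins homocysteine and serine to cystathionine, read 858.3 and 1165 units against 675.1 and 836.1 (-0.34 ± 0.065, adjusted p = 0.0072). Without the high leucine array of the second experiment its adjusted p was 0.095.

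The synthesis list also held the polyamine enzymes ODC1, AMD1, SMS and SRM (-0.033 to 0.076), none of them called. As a whole it did not move together. None of its 23 tested enzymes (0) was called higher, and the median was -0.033, which became 0.0077 with median centring. With 1 array left out, between 2 (without the high leucine array of the second experiment) and 7 were called lower, and without the block 1 was.

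Cytosolic aminoacyl-tRNA synthetases, which charge transfer RNAs with their amino acids, were lower in high leucine for part of the family. CARS1, for cysteine, read 3567 and 4040 units in low leucine against 2114 and 2276 in high leucine. Its difference of -0.77 ± 0.056 had an adjusted p of 2.2e-06 and passed without the block at 0.011. SARS1, for serine, read 3324 and 4101 units against 1971 and 2403, a difference of -0.74 in the first and -0.75 in the second experiment (adjusted p = 1.5e-05). GARS1, for glycine, read 4128 and 6252 units against 2618 and 3257 (-0.79 ± 0.095, adjusted p = 0.00021). AARS1, for alanine, read 2357 and 2673 units against 1520 and 1840 (-0.56 ± 0.053, adjusted p = 2.5e-05). In each of these 4 genes both high leucine arrays lay below both low leucine arrays. The list of 17 tested genes includes AIMP1 (-0.056, not called), which is not a synthetase. Of these 17 genes, 9 were called lower, and the list median was -0.27. Between 6 and 9 were called lower with 1 array left out, and 1 without the block. RARS1, for arginine, was the 1 member called higher, at 0.21 and an adjusted p of 0.0498 (named after its value was seen), and no fit with 1 of the 4 arrays left out made this call. LARS1, which charges leucine transfer RNA, had a difference of -0.12 and did not pass (adjusted p = 0.42; also named after its value was seen). Of the 8 tested synthetases of mitochondria limma called 0, and their median was -0.045. At an unadjusted p under 0.05 there was 1 in the fits with and without the block. Over all 13329 tested probe sets, 2209 had such a p with the block and 886 without it.

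The promoters of the called genes were searched for the core that ATF4 and C/EBP partners share in such composite elements, TGATGNAA, on both strands. RefSeq promoters of GRCh38.p14, from 250 bases before to 50 bases after the first listed start, were matched for 116 of the 141 called lower genes, 161 of the 193 called higher genes and 6763 of the 8280 tested genes. The core was in 12 of 116 called lower promoters (10.3%), in 2 of 161 called higher promoters (1.24%), in 127 of 6763 tested ones (1.88%) and in 3.67% of all 27305 promoters of the table. With any listed start of a gene the shares were 14.7%, 1.24% and 2.99% of the called lower, called higher and tested genes. The 12 genes were SLC7A1, SLC38A1, SLC3A2, CARS1, TARS1, AARS1, NARS1, ASNS, GOT1, CHAC1, HERPUD1 and RSL24D1, and they were named because they were called lower and held a match. A match describes the letters in this window and is not a measured binding site.

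The following sequences show the core, in capitals, in a transporter, an enzyme, synthetases and a stress gene that were lower in high leucine. Each is written 5′ to 3′ along the gene's own strand, and capitals read TTGCATCA where the core lies on the other strand.
ASNS: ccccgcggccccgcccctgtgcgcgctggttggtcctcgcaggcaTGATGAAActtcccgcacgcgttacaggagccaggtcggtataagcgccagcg
AARS1: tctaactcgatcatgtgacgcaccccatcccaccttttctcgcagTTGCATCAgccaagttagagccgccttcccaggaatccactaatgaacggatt
CHAC1: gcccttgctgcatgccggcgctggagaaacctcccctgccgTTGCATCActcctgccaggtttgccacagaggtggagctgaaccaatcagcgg
CARS1: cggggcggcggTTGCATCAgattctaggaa
TARS1: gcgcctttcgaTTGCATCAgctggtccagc
SLC7A1: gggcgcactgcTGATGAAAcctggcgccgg

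The ASNS sequence is chr7:97872424-97872521 on the minus strand, with the core from 68 to 61 bases before the start. That of AARS1 is chr16:70289641-70289738 on the minus strand, with the core from 187 to 180 bases before the start. That of CHAC1 is chr15:40953221-40953314 on the plus strand, with the core from 209 to 202 bases before the start. In CARS1 (chr11:3057407-3057436, minus strand) the core spans the start. In TARS1 (chr5:33440956-33440985, plus strand) and SLC7A1 (chr13:29595663-29595692, minus strand) it lies just after the start, in the transcribed part. TARS1, the threonine synthetase, read 2424 and 2459 units in low leucine against 1411 and 1616 in high leucine, a difference of -0.65 ± 0.078 (adjusted p = 0.00021).

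**Figure D3:**
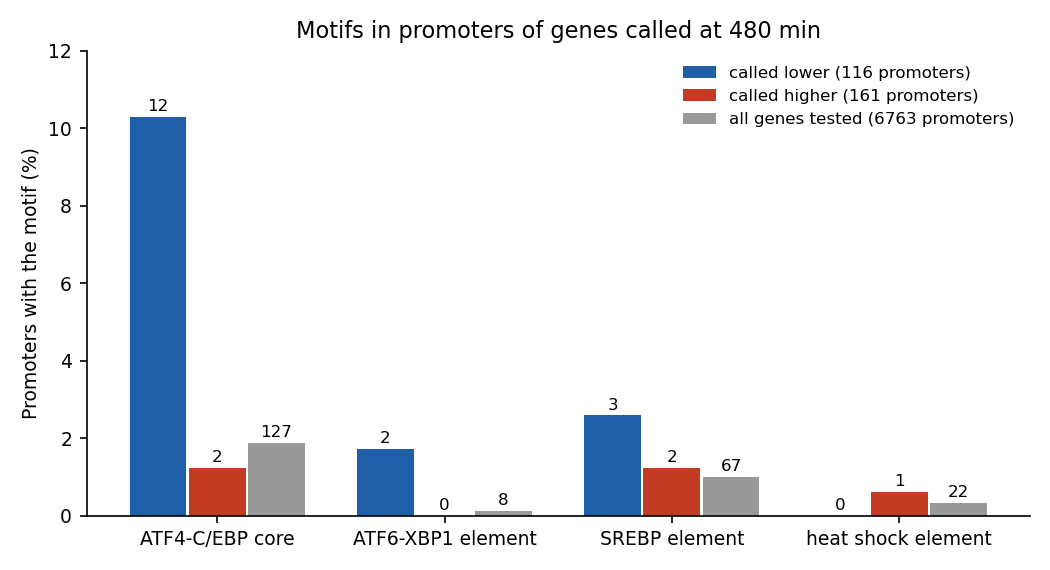
Share of promoters (%) that hold each of 4 motifs, for the genes called lower (blue), the genes called higher (red) and all tested genes (grey) at 480 min, with the number of promoters with a match above each bar. The ATF4-C/EBP core was in 10.3% of called lower promoters, 1.24% of called higher ones and 1.88% of all tested ones.

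Secreted and other effectors of the stress response were among the most changed genes. STC2, a secreted glycoprotein hormone that ATF4 induces, read 980.9 and 1196 units in low leucine against 314.8 and 374.0 in high leucine. Its difference of -1.28 ± 0.12 (adjusted p = 2.5e-05) was the second most negative among the named genes. VEGFA, the vascular growth factor, read 833.6 and 1401 units against 401.6 and 518.7 (-0.995 ± 0.14, adjusted p = 0.00057). Of its 3 other probe sets 1 was called, with differences from -0.36 to -0.15. IFRD1, a transcription cofactor whose messenger RNA is stabilised when eIF2 is phosphorylated, read 948.6 and 1108 units against 517.2 and 516.7. Its difference of -0.79 ± 0.081 (adjusted p = 4.6e-05) passed without the block at 0.023. It was already -0.45 at 0 min.

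TXNIP, the inhibitor of thioredoxin, read 2744 and 3459 units in low leucine against 1870 and 2148 in high leucine (-0.60 ± 0.1, adjusted p = 0.0034), and both of its other probe sets were called, at -0.66 and -0.55. CHAC1, which degrades glutathione and is a target of ATF4 and CHOP, read 1309 and 1166 units against 907.5 and 608.2 (-0.62 ± 0.11, adjusted p = 0.0034). The adjusted p was 0.056 for TXNIP and 0.082 for CHAC1 when the high leucine array of the second experiment was left out. GDF15, a secreted stress hormone, read 1504 and 2614 units in low leucine against 1054 and 1071 in high leucine. The difference was -0.48 in the first and -1.18 in the second experiment, and its call (adjusted p = 0.02) was lost on leaving out any of 3 of the 4 arrays, at up to 0.27 without the high leucine array of the second experiment. Of 15 tested effectors, 7 were called lower and 0 higher, with a median of -0.11, and between 3 and 7 were called with 1 array left out.

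Genes of protein folding in the endoplasmic reticulum changed in part. XBP1, the transcription factor of the unfolded protein response, read 1563 and 1420 units in low leucine against 927.7 and 872.4 in high leucine. Its difference of -0.64 ± 0.081 (adjusted p = 0.00032) passed without the block at 0.016. HERPUD1, a membrane protein of degradation at this organelle, read 2138 and 2260 units against 1354 and 1300 (-0.68 ± 0.086, adjusted p = 0.00032). DNAJB9, a co-chaperone of its lumen, read 1946 and 2021 units against 1144 and 1099 (-0.75 ± 0.12, adjusted p = 0.0017). HSPA5, its main chaperone (BiP), read 4927 and 5478 units against 3844 and 3544 (-0.51 ± 0.085, adjusted p = 0.003). These 4 calls held with each of the 4 arrays left out. Of 25 tested members 5 were called lower and 0 higher, and the list median was -0.11. Most of the folding enzymes on the list, the protein disulfide isomerases among them, did not pass.

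The element that ATF6 and XBP1 bind, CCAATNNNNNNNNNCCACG, was in the promoters of XBP1 and HSPA5, which are 2 of 116 called lower promoters (1.72%), against 0.118% of all tested promoters. It was also in 6 of 23 promoters of the whole list. The element is shown in capitals to set beside the values of both genes.
XBP1: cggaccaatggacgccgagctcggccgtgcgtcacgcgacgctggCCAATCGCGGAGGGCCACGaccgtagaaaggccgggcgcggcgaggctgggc
HSPA5: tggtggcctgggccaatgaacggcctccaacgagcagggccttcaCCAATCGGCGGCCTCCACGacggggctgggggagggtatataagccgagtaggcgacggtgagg

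The XBP1 sequence is chr22:28800570-28800666 on the minus strand, with the element from 52 to 34 bases before the start. That of HSPA5 is chr9:125241346-125241454 on the minus strand, with the element from 66 to 48 bases before the start.

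CAMTA2, GFPT1 and COPA were also lower in high leucine. CAMTA2, a calmodulin-binding transcription activator, read 1279 and 2444 units in low leucine against 600.0 and 844.9 in high leucine (-1.14 ± 0.099, adjusted p = 1.2e-05). GFPT1, the first enzyme of the hexosamine pathway, read 1655 and 1775 units against 886.2 and 814.6. Its difference of -0.89 ± 0.092 (adjusted p = 4.8e-05) passed without the block at 0.03 and was the 1 call among 20 tested genes of its pathway list, against 4.03% of all tested genes. COPA, a subunit of the COPI coat, read 2336 and 2641 units against 1768 and 1757 (-0.49 ± 0.065, adjusted p = 0.00043) and was the 1 call among 23 coat genes (4.35%), a share near that of all genes. Its other probe set was at -0.11 and was not called. ERP29, a folding helper of the endoplasmic reticulum (-0.41, adjusted p = 0.0025), and IMPDH2, the rate-limiting enzyme of guanine nucleotide synthesis (-0.33, adjusted p = 0.0046), also passed without the block, at 0.03 and 0.049. Without the high leucine array of the second experiment the adjusted p of IMPDH2 was 0.082.

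On the higher side, 5 of 19 tested cytosolic heat shock chaperones were called, against 2.33% of all tested genes. HSPB1, the small heat shock protein HSP27, read 1371 and 1143 units in low leucine against 2433 and 2487 in high leucine. Its difference of 0.87 ± 0.086 (adjusted p = 3.9e-05) was the largest among the 8280 genes, and its adjusted p without the block was 0.056. HSPH1, a nucleotide exchange factor of the HSP70 system, read 1802 and 2089 units against 2744 and 2920 (0.48 ± 0.075, adjusted p = 0.0021). HSPA2, an HSP70 family member, read 521.1 and 570.9 units against 745.0 and 878.2 (0.46 ± 0.059, adjusted p = 0.00033). HSPH1 and HSPA2 passed without the block at 0.035 and 0.03. HSP90AA1, the inducible HSP90, differed by 0.25 ± 0.05 (adjusted p = 0.011, and 0.18 without the high leucine array of the second experiment), and 2 of its 3 other probe sets were called.

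On the heat shock list 0 genes were called lower, and the median was 0.20, against -0.01 for all genes. Between 3 and 7 were called with 1 array left out. The heat shock element GAANNTTCNNGAA was in 3 of 16 matched promoters of the list, against 0.325% of all tested promoters and 1 of 161 called higher ones. That 1 promoter was of ABHD3, which is not on the list, so with the first listed start the 3 belong to list members that were not called. With any listed start the element was in 5 of the 16 and in 3 of the 161 (1.86%), against 0.488% of all tested ones.

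Mitochondrial chaperones went both ways. HSPE1, the HSP10 co-chaperonin, read 1564 and 1253 units in low leucine against 2269 and 2068 in high leucine (0.55 ± 0.075, adjusted p = 0.00057). HSPA9, the HSP70 that drives import into the matrix, read 3286 and 3667 units against 2343 and 2353. Its difference of -0.55 ± 0.068 (adjusted p = 0.00031) passed without the block at 0.018. TIMM9, a chaperone of the intermembrane space, read 1343 and 1526 units against 972.9 and 1003 (-0.48 ± 0.057, adjusted p = 0.00019), and also passed without the block, at 0.016. Of 22 tested members 2 were called higher and 3 lower, and the median was -0.034.

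Of 20 tested genes of mevalonate and sterol synthesis 7 were called higher in high leucine, against 2.33% of all tested genes. IDI1, the isomerase that makes the second isoprene building block, read 1357 and 1343 units in low leucine against 2226 and 2108 in high leucine. The pairs were alike, 0.61 in the first and 0.56 in the second experiment, and the fitted difference of 0.59 ± 0.063 (adjusted p = 7.6e-05) passed without the block at 0.016. Its second probe set was called at 0.64. MSMO1, a C4-demethylating oxidase, read 1224 and 1251 units against 2334 and 1884 (0.68 ± 0.084, adjusted p = 0.00029). EBP, the sterol isomerase, read 1810 and 1298 units against 2510 and 1767, so that its groups overlapped although each high leucine array lay above its partner (0.40 ± 0.062, adjusted p = 0.002). Its 2 other probe sets, at 0.27 and 0.28, were not called. DHCR7, the last reductase before cholesterol, read 1007 and 1095 units against 1413 and 1510 (0.41 ± 0.066, adjusted p = 0.0024, and 0.057 without the high leucine array of the second experiment). Its second probe set was called at 0.39.

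INSIG1, the sterol-responsive anchor of SREBP and itself an SREBP target, read 1010 and 522.2 units in low leucine against 1455 and 1071 in high leucine. Its difference was 0.44 in the first and 0.86 in the second experiment, and its call (adjusted p = 0.033) was lost on leaving out any of 3 of the 4 arrays, at up to 0.36 without the high leucine array of the second experiment. HMGCS1, the synthase at the head of the pathway, did not pass, at 0.28 ± 0.077 (adjusted p = 0.058). Without the high leucine array of the second experiment it was 0.43 with an adjusted p of 0.013, and with each pair as a block of its own it passed at 0.031. None of the sterol genes (0) was called lower, and the list median was 0.19. Of the 20, 17 were above 0, against 3781 of all 8280 tested genes. In both experiments 14 were above 0, against 2489 of the 8280. Between 4 and 8 sterol genes were called with 1 array left out, and 1 without the block. Among 14 genes of fatty acid synthesis 1 was called (7.14%, against 4.03% of all tested genes). It was FADS2, a desaturase of polyunsaturated fatty acids, with 1112 and 1003 units against 1744 and 1664 (0.59 ± 0.12, adjusted p = 0.012, and 0.19 without the high leucine array of the second experiment). The SREBP element TCACNCCAC was in 2 of 161 called higher promoters (1.24%), against 3 of 116 called lower ones (2.59%) and 0.991% of all tested ones, and in 1 of 18 promoters of the sterol list.

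**Figure D4:**
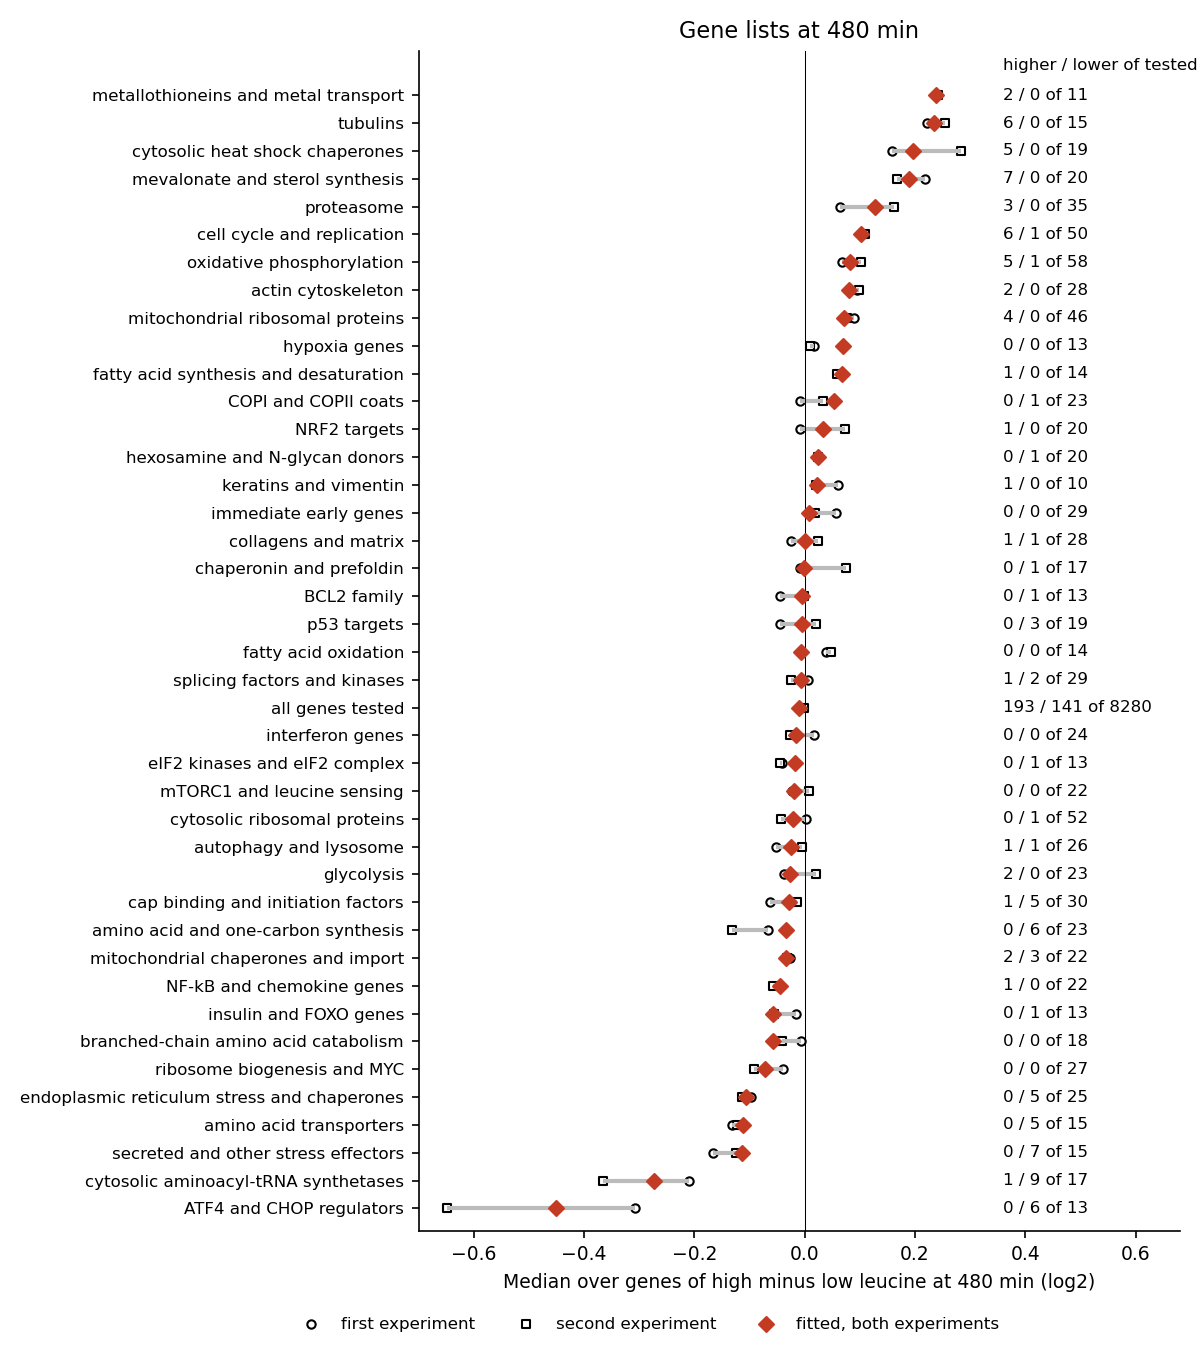
Median over the tested genes of each list of the difference between high and low leucine at 480 min (log2 units, horizontal), for lists with 10 or more tested genes; red diamonds are the fitted value, white circles the first and white squares the second experiment. The column at the right gives the number of genes called higher and called lower of those tested; the ATF4 and CHOP regulators lie lowest at -0.45, and 4 lists lie at 0.19 or above.

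Of 15 tested genes on the list of tubulins, the subunits of microtubules, 6 were called higher in high leucine. The list also held STMN1, DYNLL1, DYNLT1, DYNLT3 and DYNC1H1, which are not tubulins, and of these only DYNLL1 was called. TUBA1A read 853.3 and 1101 units in low leucine against 1527 and 1967 in high leucine, a difference of 0.73 ± 0.085 (adjusted p = 0.00017, and 0.016 without the block). TUBB4B read 4580 and 4980 units against 5781 and 6987 (0.35 ± 0.058, adjusted p = 0.0029), and its second probe set was called at 0.36. TUBB2A read 799.8 and 1190 units against 1230 and 2008, a difference of 0.59 ± 0.15 (adjusted p = 0.035). Probes of this family can cross-detect close relatives. DYNLL1, a light chain of the motor dynein that was on the same list, read 3818 and 4231 units against 5067 and 5682 (0.36 ± 0.053, adjusted p = 0.0012, and 0.016 without the block). On the list 0 genes were called lower, and the median of all 15 genes was 0.24. The only members below 0 were STMN1 (-0.35) and DYNC1H1 (-0.26). The high leucine array of the second experiment bore on the count of called genes. Without it 2 were called, and the adjusted p was 0.32 for TUBB2A and 0.057 for TUBB4B.

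Other structural and surface genes that were higher were few. KRT19, a keratin of bile duct and simple epithelia, read 2152 and 3657 units in low leucine against 3169 and 5751 in high leucine (0.52 ± 0.077, adjusted p = 0.0013). Its level differed between experiments, and the groups overlapped in the deposited values. KRT19 was the 1 call among 10 keratin and vimentin genes (10%, against 4.03% of all tested genes). KRT7, a keratin of the same epithelia, was at -0.16 (adjusted p = 0.51). LOXL1, which cross-links elastin and collagen, read 840.9 and 1244 units against 1449 and 2010 (0.64 ± 0.11, adjusted p = 0.0046, and 0.1 without the high leucine array of the second experiment). CD14, a receptor for bacterial lipopolysaccharide best known from monocytes, read 927.5 and 646.8 units against 1195 and 1213 (0.53 ± 0.095, adjusted p = 0.0053, and 0.085 without the same array). It was the 1 call among 6 tested endothelial and blood markers (16.7%, against 4.03% of all tested genes). Of 11 that the array holds, 0 exceeded the 90th percentile of signal, and their summed intensity was 4727 and 5036 units in low leucine against 4835 and 5385 in high leucine. The part of other cell types in these values was not tested. CCL2, a chemokine that attracts monocytes, read 442.6 and 334.6 units against 701.8 and 470.9 (0.45 ± 0.081, adjusted p = 0.0058, and 0.069 without the low leucine array of the first experiment) and was the 1 call among 22 NF-kB and chemokine genes (4.55%), a share near the 4.03% of all tested genes.

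Genes of the cell cycle were higher in part. PCNA, the sliding clamp of DNA polymerases, read 3029 and 2611 units in low leucine against 3854 and 4057 in high leucine (0.45 ± 0.069, adjusted p = 0.0017). KPNA2, a nuclear import receptor abundant in dividing cells, read 3289 and 2776 units against 4652 and 4311 (0.53 ± 0.054, adjusted p = 4.6e-05), and its second probe set was called at 0.39. CCNA2, the S phase and G2 cyclin, read 1150 and 754.2 units against 1456 and 1297 (0.48 ± 0.082, adjusted p = 0.0037). CCNE2, a G1 cyclin, read 564.2 and 370.3 units against 764.2 and 535.2 (0.37 ± 0.076, adjusted p = 0.012). The other probe set of CCNA2, at 0.375, was not called, and that of CCNE2, at 0.43, was. CCNA2 had an adjusted p of 0.085 and CCNE2 of 0.19 when the high leucine array of the second experiment was left out. MCM7, a subunit of the replicative helicase, was lower, at -0.30 ± 0.064 (adjusted p = 0.014, and 0.16 without the same array). Of 50 tested genes 6 were called higher and 1 lower, against 2.33% and 1.7% of all tested genes, with a median of 0.10. Without the block 0 of them were called.

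Translation genes did not move as a block. EIF4E, the factor that binds the messenger cap, read 1721 and 912.6 units in low leucine against 2238 and 1780 in high leucine. Its difference was 0.33 in the first and 0.84 in the second experiment (fitted 0.58 ± 0.1, adjusted p = 0.0044), and its second probe set was called at 0.43. The adjusted p of EIF4E was 0.087 without the high leucine array of the second experiment. EIF3A, the largest subunit of initiation factor 3, was lower, with 2365 and 3264 units against 1802 and 2183 (-0.48 ± 0.064, adjusted p = 0.00051), and both other probe sets were called lower. EIF4EBP1, the repressor of EIF4E that mTORC1 inactivates, was at -0.16 ± 0.069 and did not pass (adjusted p = 0.27). Of 30 tested cap binding and initiation factors 1 was called higher and 5 lower, and the median of -0.028 became 0.023 with median centring.

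Of 52 cytosolic ribosomal proteins 1 was called (1.92%, against 4.03% of all tested genes). It was RPL3, which was lower (-0.22 ± 0.053, adjusted p = 0.029). That call was lost without each of 3 arrays, at up to 0.20 without the high leucine array of the first experiment. The median of these proteins was -0.022, and 0.024 with median centring. Among 27 genes of ribosome biogenesis and MYC, limma called 0, and the median was -0.072. Of the 27, 25 were below 0, against 4498 of all 8280 tested genes. In both experiments 14 were below 0, against 2805 of the 8280. At an unadjusted p under 0.05 there were 5 of the 27, against 2209 of all 13329 tested probe sets. Without the block there were 2, against 886 of all. MYC, the growth-promoting transcription factor on that list, read 1611 and 1816 units against 1477 and 1294 (-0.29 ± 0.15, adjusted p = 0.35).

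Several lists of mitochondrial and degradation machinery had small positive medians. Of 35 proteasome genes 3 were called higher (8.57%, against 2.33% of all tested genes) and 0 lower, with a median of 0.13. Without the block 0 genes of the proteasome, oxidative phosphorylation and mitochondrial ribosome lists were called. PSMA2, a subunit of the core particle, read 3877 and 3334 units in low leucine against 4852 and 4412 in high leucine (0.35 ± 0.054, adjusted p = 0.0021). Its other probe set was at 0.17 and was not called. Among 46 mitochondrial ribosomal proteins 4 were called higher (8.7%, against 2.33% of all tested genes) and 0 lower, with a median of 0.071. MRPL34, of the large subunit, read 1216 and 1230 units against 1662 and 1666 (0.38 ± 0.065, adjusted p = 0.0035). Of 58 genes of oxidative phosphorylation 5 were called higher and 1 lower (10.3% together, against 4.03% of all tested genes). Their median was 0.083, and 48 of the 58 were above 0, against 3781 of all 8280 tested genes. In both experiments 38 were above 0, against 2489 of the 8280. COX6B1, a subunit of cytochrome oxidase, read 2853 and 2824 units against 3864 and 3792 (0.39 ± 0.094, adjusted p = 0.031). Its call was lost with each of the 4 arrays left out, at up to 0.18 without the high leucine array of the second experiment. PRDX1, a peroxiredoxin that removes hydrogen peroxide, read 5914 and 5337 units against 7530 and 7293 (0.36 ± 0.045, adjusted p = 0.00032) and was the 1 call among 20 NRF2 targets (5%, against 4.03% of all tested genes).

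The list of metallothioneins, which bind zinc and copper, and of metal transport genes had a median of 0.24. Of its 11 tested genes 2 were called higher (18.2%, against 2.33% of all tested genes). MT1F read 4816 and 6577 units in low leucine against 5952 and 8813 in high leucine, so that the groups overlapped (0.35 ± 0.09, adjusted p = 0.041). MT1E read 6844 and 8657 units against 8473 and 10560 (0.29 ± 0.072, adjusted p = 0.034). With the high leucine array of the second experiment left out the adjusted p was 0.42 and 0.31. Probes of these genes can cross-detect other family members, and with the values as deposited neither call was made, at 0.053 and 0.054. The other probe set of MT1F was called, at 0.38, and that of MT1E, at 0.26, was not.

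Genes of stress and death were lower in a few cases. PMAIP1, which encodes the pro-death BCL2 family protein NOXA, read 1714 and 2008 units in low leucine against 1246 and 1298 in high leucine. Its difference of -0.50 ± 0.067 (adjusted p = 0.00051) passed without the block at 0.018. The other probe set of the gene was at -0.32 and was not called. PMAIP1 was the 1 call among 13 BCL2 family genes (7.69%, against 4.03% of all tested genes). Of 19 p53 targets 3 were called lower (15.8%, against 1.7% of all tested genes) and 0 higher. They were XPC (-0.29), TNFRSF10B (-0.29) and BTG1 (-0.34), at adjusted p of 0.016, 0.023 and 0.049. The other probe sets of TNFRSF10B (-0.16 and -0.105) and BTG1 (-0.31) were not called. All 3 calls were lost when certain single arrays were left out, at up to 0.20, 0.30 and 0.35 without the high leucine array of the second experiment. NIBAN1, a stress protein that 2 probe sets called, read 984.2 and 1442 units against 704.9 and 745.7 (-0.62 ± 0.092, adjusted p = 0.0014). SQSTM1, the autophagy receptor p62, was at -0.34 ± 0.076 (adjusted p = 0.018, and 0.21 without the high leucine array of the second experiment). PCK2, the mitochondrial phosphoenolpyruvate carboxykinase, read 998.0 and 1405 units against 821.4 and 918.5 (-0.40 ± 0.091, adjusted p = 0.022, and 0.27 without that array).

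Lists tied most directly to leucine itself held no call. Of 18 tested genes of branched-chain amino acid breakdown limma called 0, and the same held for 22 genes of mTORC1 and leucine sensing. At an unadjusted p under 0.05 the former list held 5 and the latter 3, and each held 2 without the block. Over all 13329 tested probe sets, 2209 had such a p with the block and 886 without it. BCAT1, the cytosolic branched-chain aminotransferase, read 1151 and 664.0 units in low leucine against 1099 and 602.1 in high leucine (-0.089 ± 0.078, adjusted p = 0.63). BCAT2, the mitochondrial one, read 771.0 and 768.3 units against 972.2 and 932.9 (0.26 ± 0.071, adjusted p = 0.058), and it passed with median centring at 0.038 and with each pair as a block of its own at 0.019. Of 29 immediate early genes limma likewise called 0, with single differences from -0.43 to 0.57, and 1 passed at an unadjusted p under 0.05 (0 without the block). The highest was ID1, an inhibitor of DNA binding by helix-loop-helix factors (0.57 ± 0.21, adjusted p = 0.16). With each pair as a block of its own ID1 passed at 0.0087 and its relative ID3 (0.25 ± 0.16) at 0.026.

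Genes with more than 1 probe set could be compared within the arrays. The 114 called genes with other tested probe sets had 182 of them. Of these, 171 had the same sign as the called one, 72 were themselves called with that sign and 0 were called with the opposite sign. Of all 13329 tested probe sets, 545 (4.09%) were called in either direction. The share with the same sign was not computed for genes that were not called. Among the uncalled was the other probe set of SQSTM1, at -0.14. The probe sets of a gene read the same RNA on the same arrays and are not independent samples. PRP4K, a kinase of the splicing machinery (0.42, adjusted p = 0.00043), and CHPF2, of chondroitin synthesis (0.41, adjusted p = 0.0015), each had a second probe set called, at 0.47 and 0.45. TM4SF1, a surface tetraspanin-like protein, had 3 called probe sets, at 0.33, 0.48 and 0.50. DBI, the acyl-CoA binding protein, also had 3, at 0.42, 0.35 and 0.48, and the adjusted p of its brightest was 0.16 without the high leucine array of the second experiment.

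The same genes were followed through the earlier times, whose arrays share the block and the variances with the comparison at 480 min. At 0 min the called lower genes had no common sign, with 44.7% of 141 below 0 against 43.1% of all tested genes, and the shares at 30 min were 38.3% and 50.5%. At 60 min 57.4% were below 0 against 50.6% of all, and at 120 min 79.4% against 46.1%, with a median of -0.067. The called higher genes were above 0 in 33.2% of 193 at 0 min, against 56.8% of all tested genes. Their shares at 30, 60 and 120 min were 70.5%, 64.2% and 57%, against 49.4%, 49.4% and 53.9% of all, and their medians stayed between 0.016 and 0.027.

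Single genes of the ATF4 circle differed in when the values parted. ATF4 had a difference of -0.08 at 30 min, -0.24 at 60 min and -0.61 at 120 min. DDIT3 was at -0.11 at 60 min and -0.75 at 120 min, and CHAC1 at -0.10 and -0.56, so that both were close at 120 min to their values at 480 min. TRIB3 and SLC7A11 were at -0.31 and -0.33 at 120 min. The synthetase CARS1 was at -0.06 and the serine enzyme PSAT1 at -0.02 at that time. Among the higher genes, HSPB1 was at 0.17 at 120 min, IDI1 at -0.0037, TUBA1A at 0.06 and PCNA at 0.034.

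**Figure D5:**
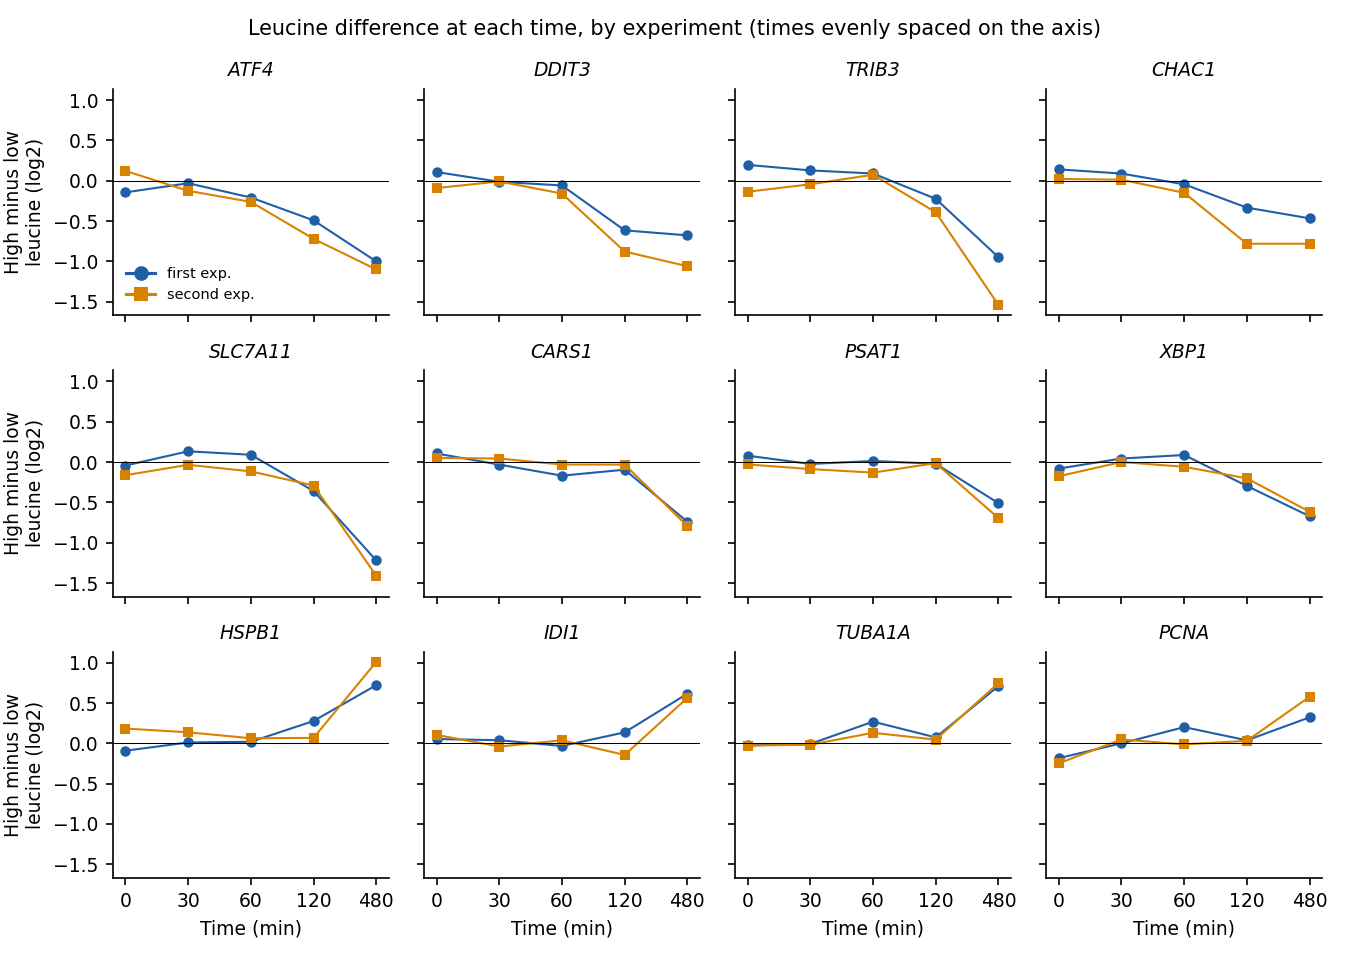
Difference between high and low leucine (log2 units) at 0, 30, 60, 120 and 480 min for 12 genes, in the first experiment (blue circles) and the second (orange squares), with times evenly spaced. ATF4, DDIT3, TRIB3, CHAC1, SLC7A11, CARS1, PSAT1 and XBP1 lie below 0 in both experiments at 120 min. Nearest to 0 among them are CARS1 (-0.0949 and -0.0313) and PSAT1 (-0.0219 and -0.0138). Each gene shown reaches its largest difference at 480 min in both experiments, except CHAC1 in the second, at -0.781 at 120 and at 480 min.

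The difference at 480 min was also tested against the difference at 0 min, where the labels give the same leucine levels with no time in the medium. With the block, 509 of 13329 probe sets (3.82%) differed, 358 with a more positive and 151 with a more negative leucine difference at 480 min. Of the 545 probe sets called at 480 min 273 were among them. Both tests use the 480 min arrays. Without the block limma called 0, with 1038 at an unadjusted p under 0.05 against 2695 with the block. For ATF4 the change was -1.04 (adjusted p = 8.2e-05), and for CARS1 -0.85 (adjusted p = 8.2e-05). For IFRD1, with its difference at 0 min, it was -0.34 and did not pass (adjusted p = 0.11). For ASNS, GDF15 and HSPA5, -0.34, -0.93 and -0.34, it did not pass either (adjusted p = 0.22, 0.058 and 0.12). On the higher side the change was 0.82 for HSPB1 (adjusted p = 0.0028), 0.51 for IDI1 (adjusted p = 0.0074) and 0.76 for TUBA1A (adjusted p = 0.0052).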

How the data were processed

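RNA of THLE-3 cells was hybridised to human Affymetrix arrays. The deposited values are linear probe set intensity values; the summary and scaling steps of the authors are not stated in the labels. To each value 165.2 was added as pseudocount (the 10th percentile of an array, median of 20 arrays), log2 values of the deposited intensities were taken, and the 20 arrays were quantile normalized. The pseudocount shrinks the differences of weak probe sets. Probe sets at or above the 40th percentile of mean log2 were kept. The platform annotation gave 19065 probe sets 1 symbol, 1043 several and 2107 none; only the first were named, with symbols updated through RefSeq gene IDs, and the brightest probe set stood for a gene.

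All 20 arrays were fitted with limma 3.58.1 in R 4.3.3, with 10 group means, the experiment as a fixed block (9 residual degrees of freedom), eBayes variances that follow an intensity trend, and p-values (two-sided) adjusted by Benjamini-Hochberg for 13329 probe sets. The block was used because the comparison is paired by experiment. Deviations of same-numbered arrays from their group means correlated at 0.81 to 0.93. Each ± is a standard error. The fit was tested on simulated data. The number of arrays limits the precision. Alternatives changed the block, normalization, pseudocount, filter, variance model and arrays included.

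Named genes were the up to 15 largest rises and 15 largest falls among called genes, up to 4 members per list with the smallest p, a fixed set of response genes, genes with several called probe sets and genes called without the block. Members, lists and rules were chosen with earlier results of these data known. Promoters came from RefSeq, first listed start; the use of any listed start was chosen after seeing the data.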

Additional observations from a re-analysis of the deposited data

Results flagged for a closer look

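The difference between high and low leucine at 480 min was tested against that at 0 min, and 509 probe sets differed (adjusted p under 0.05, limma with the experiment as a block, 0 without it). The genes described above that did so follow, with the change of the difference from 0 to 480 min on the log2 scale, each from 2 arrays per group. Both tests of a gene share the 480 min arrays. A change also holds any difference at 0 min. At that time 33.2% of the 193 called higher genes were above 0, against 56.8% of all tested genes. Of the 141 called lower genes 44.7% were below 0, against 43.1% of all.

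Among the regulators the change was -1.04 for ATF4, -0.88 for DDIT3, -1.28 for TRIB3, -0.80 for CEBPG and -0.69 for NUPR1. Of the carriers, SLC7A11 changed by -1.22, SLC3A2 by -0.44 and SLC7A1 by -0.82. The enzymes PSAT1, SHMT2 and MTHFD2 changed by -0.63, -0.72 and -0.80. For the synthetases it was -0.85 in CARS1, -0.86 in SARS1, -0.70 in AARS1, -0.78 in GARS1 and -0.65 in TARS1, against 0.34 in RARS1. The effectors STC2, VEGFA and CHAC1 changed by -1.21, -1.01 and -0.71. In the endoplasmic reticulum it was -0.52 for XBP1, -0.74 for HERPUD1 and -0.53 for ERP29.

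CAMTA2 changed by -1.16, GFPT1 by -0.72, COPA by -0.50, PMAIP1 by -0.47, IMPDH2 by -0.35, SQSTM1 by -0.42 and XPC by -0.34. In mitochondria HSPA9 and TIMM9 changed by -0.58 and -0.57 and HSPE1 by 0.58. EIF3A changed by -0.50, MCM7 by -0.38 and EIF4E by 0.77, from differences of 0.024, 0.081 and -0.19 at 0 min.

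Among the genes that were higher in high leucine, the change was 0.82 for HSPB1, 0.53 for HSPH1 and 0.46 for HSPA2. The sterol genes IDI1, MSMO1, INSIG1 and DHCR7 changed by 0.51, 0.90, 0.85 and 0.49. Their differences at 0 min were 0.079, -0.23, -0.21 and -0.082. The change was 0.76 for TUBA1A and 0.45 for DYNLL1, and 0.67, 0.56, 0.47 and 0.70 for PCNA, CCNA2, CCNE2 and KPNA2. For PCNA, CCNA2, CCNE2 and KPNA2 the differences at 0 min were -0.22, -0.084, -0.096 and -0.17. PSMA2, MRPL34, PRDX1 and CCL2 changed by 0.36, 0.44, 0.30 and 0.45. PRP4K, CHPF2, TM4SF1 and DBI changed by 0.64, 0.375, 0.33 and 0.52, from differences of -0.22, 0.031, 0.00099 and -0.10 at 0 min.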

How the results depend on the processing

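The replicate block decided most of the counts. Of 545 probe sets called with the experiment as a block (330 higher, 215 lower), 36 (15 and 21) were called with no replicate block. With each experiment and time as a block of its own 866 (537 and 329) were called, and with the 4 arrays of 480 min alone and the block 1094 (652 and 442), on 1 residual degree of freedom. With 1 array of 480 min left out, the count ran from 130 to 478, with 73 to 239 higher and 57 to 239 lower. Array weights gave 330 (194 and 136). The use of 1 probe set per gene gave 343 (196 higher), with fewer features tested, and median centring 128 lower. The counts under the other pseudocounts, filters, variance models, the values as deposited and without the 0 min arrays stayed within 1.5 times.

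The count of probe sets whose difference at 480 min differed from that at 0 min, 509, was 0 without the block, 285 against the mean of the 4 earlier times, and 185 to 588 with 1 array of 0 or 480 min left out; the lowest came without the low leucine array of the second experiment at 0 min.

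Of 46 list medians, 10 changed sign with median centring and 6 with the values as deposited, and none of these lay further from 0 than 0.033. For 9 lists the median was also recomputed with the mean over all probe sets of a gene and in each experiment alone. Of these 9 lists 1 changed sign under these recomputations or the scalings. It was amino acid and one-carbon synthesis, whose median of -0.033 was 0.0077 with median centring (-0.13 in the second experiment alone). The list medians were not recomputed under the other settings. The transporter median of -0.11 was -0.13 with the values as deposited, -0.13 in the first and -0.12 in the second experiment. That of secreted effectors, -0.11, was -0.17 in the first experiment. The endoplasmic reticulum median of -0.11 was -0.074 with the mean over all probe sets of a gene and -0.0897 with median centring. The sterol median of 0.19 was 0.23 with median centring. That of the whole tubulin list, 0.24, was 0.26 with the values as deposited and 0.29 with median centring. The cause of these shifts was not tested. The share of called lower promoters with the ATF4-C/EBP core, 10.3%, was 1 of 12 promoters (8.33%) among the genes called without the block.

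Of 81 called genes named in the text, 49 kept the call with each of the 4 arrays left out, and 68 kept it under all other settings with the experiment as a block or in pairs. None of the 90 named genes reversed a called direction under the alternatives run. All differences rest on 2 arrays per group, which limits the precision.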
